A study of Homo sapiens with 6 samples.

Results

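H2A.Z, a variant of the core histone H2A, was set against H3K79me2, dimethylation of lysine 79 of histone H3, at the ends of protein-coding genes in HEK293T cells. H2A.Z places were H2A.Z peaks of the CST antibody that overlapped a peak of the Abcam antibody by at least 1 bp, which held for 37970 of 52325 CST peaks on chromosomes 1 to 22 and X. There were 54476 H3K79me2 peaks on the same chromosomes. Of 19451 protein-coding genes of at least 1 kb, 10297 had both an H2A.Z consensus peak and an H3K79me2 peak within 1 kb of an annotated end, 52.9% of all genes, and are called dual genes. A further 2273 genes, 11.7%, had the H2A.Z consensus at an end and no H3K79me2 peak in the gene or within 5 kb of it, and are called H2A.Z-only genes. The remaining class, called H3K79me2-only genes, held 73 genes, 0.375%, whose end carried H3K79me2 while neither H2A.Z antibody gave a peak in the gene or within 5 kb. These 3 classes held 12643 genes together.

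The libraries came from chromatin immunoprecipitation and sequencing in unperturbed HEK293T cells, a line of human embryonic kidney origin that expresses the SV40 large T antigen. Antibodies were to H2A.Z (one from CST and one from Abcam), H3K79me2 (CST), H3.3 (EMD/Millipore) and H4K16ac (CST), with 1 library each, and an input library was not analysed here. All cells had the same genotype and no treatment, and chromatin was crosslinked with formaldehyde and sheared by sonication, per the labels. With 1 library per antibody there are no replicates and no tests. Intervals are at 95%, exact binomial for shares and from order statistics for medians, and they cover counting error only. The peaks were called from populations of cells, so whether H2A.Z and H3K79me2 at a gene end lay on the same nucleosomes, on neighbouring ones or in different cells cannot be told apart.

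H2A.Z is placed into nucleosomes beside transcription start sites by the SRCAP and EP400 complexes and is found at promoters and enhancers, both active and poised. H3K79me2 is written by DOT1L on the surface of the nucleosome, in the first part of genes that RNA polymerase II is transcribing, and the enzyme travels with elongation factors such as AF9, AF10 and ENL. Fusions of these factors in leukaemia bring DOT1L to the HOX genes.

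The promoters of 5 genes show the range of sequence behind the classes, each from 250 bases before to 50 after the annotated start, from RefSeq on GRCh38.p14, 5′ to 3′ on the gene's strand. Capitals mark CpG dinucleotides. TXN, chr9:110256458-110256757 on the minus strand, is a dual gene with 34 CpG dinucleotides. WNT3A, chr1:228006748-228007047 on the plus strand, with 49, and SPOCD1, chr1:31815973-31816272 on the minus strand, with 9, are both H2A.Z-only genes, one dense and one poor in CpG. HOXA6, chr7:27147725-27148024 on the minus strand, with 29, and NPM1, chr5:171386866-171387165 on the plus strand, with 13, are H3K79me2-only genes.
TXN: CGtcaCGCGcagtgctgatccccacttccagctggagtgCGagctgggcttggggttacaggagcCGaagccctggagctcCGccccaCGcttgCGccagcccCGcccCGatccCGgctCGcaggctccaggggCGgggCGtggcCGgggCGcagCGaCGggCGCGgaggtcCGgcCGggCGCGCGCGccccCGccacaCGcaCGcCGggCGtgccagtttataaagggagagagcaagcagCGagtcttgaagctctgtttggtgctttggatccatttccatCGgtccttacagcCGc
WNT3A: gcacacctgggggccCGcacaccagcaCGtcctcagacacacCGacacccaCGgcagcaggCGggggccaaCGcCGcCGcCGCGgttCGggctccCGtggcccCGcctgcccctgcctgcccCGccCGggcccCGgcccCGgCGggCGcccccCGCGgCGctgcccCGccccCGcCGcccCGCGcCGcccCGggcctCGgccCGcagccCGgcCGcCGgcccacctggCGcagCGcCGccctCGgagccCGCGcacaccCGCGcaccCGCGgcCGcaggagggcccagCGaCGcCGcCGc
SPOCD1: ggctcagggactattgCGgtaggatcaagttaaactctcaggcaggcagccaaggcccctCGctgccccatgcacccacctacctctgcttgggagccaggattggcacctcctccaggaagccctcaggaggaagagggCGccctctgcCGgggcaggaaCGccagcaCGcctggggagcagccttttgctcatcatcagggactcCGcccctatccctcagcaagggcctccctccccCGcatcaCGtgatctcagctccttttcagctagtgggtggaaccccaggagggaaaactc
HOXA6: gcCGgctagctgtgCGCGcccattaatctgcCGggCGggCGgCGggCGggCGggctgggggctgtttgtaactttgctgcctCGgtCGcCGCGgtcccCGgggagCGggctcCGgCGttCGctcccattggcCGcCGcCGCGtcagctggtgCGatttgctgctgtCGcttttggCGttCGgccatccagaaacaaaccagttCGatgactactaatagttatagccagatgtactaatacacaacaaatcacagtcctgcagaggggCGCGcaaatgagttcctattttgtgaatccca
NPM1: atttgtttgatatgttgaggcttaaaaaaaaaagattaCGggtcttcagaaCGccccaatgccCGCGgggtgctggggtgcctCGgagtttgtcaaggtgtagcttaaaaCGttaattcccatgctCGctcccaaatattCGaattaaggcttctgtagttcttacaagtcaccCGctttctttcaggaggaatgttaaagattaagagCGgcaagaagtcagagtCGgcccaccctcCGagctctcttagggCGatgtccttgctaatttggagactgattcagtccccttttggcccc

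The relation between the signals was uneven. A CST peak lay at an end of 13761 genes, 70.7% of all, and an Abcam peak at an end of 13820 genes, 71.1%. The H2A.Z consensus lay at an end of 13151 genes, 67.6%, and an H3K79me2 peak at an end of 10776 genes, 55.4%. Of the genes with the H2A.Z consensus, 78.3% (77.6 to 79) also had H3K79me2 at an end. Of the genes with H3K79me2, 95.6% (95.1 to 95.9) also had the H2A.Z consensus at an end. Almost every gene with H3K79me2 at an end thus carried H2A.Z there, while 17.3% of the genes with H2A.Z were H2A.Z-only. In 10248 of the 10297 dual genes both signals were at the same end.

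Genes that met part of a rule made up the rest. In 581 genes, 2.99%, the H2A.Z consensus was at an end and H3K79me2 lay in the gene or within 5 kb but not at an end. In 406 genes, 2.09%, H3K79me2 was at an end and H2A.Z was unclear. Of these 406, a CST peak alone was at an end of 72, an Abcam peak alone at an end of 143, and peaks of both antibodies without overlap at an end of 38, while the other 153 had H2A.Z only inside the gene or within 5 kb. A total of 5821 genes, 29.9%, had neither the H2A.Z consensus nor H3K79me2 at an end, and neither signal is meant in this sense below. These genes were not free of H2A.Z: 500 had a CST peak and 503 an Abcam peak at an end, counts that may share genes. In 1825 of them (31.4%) the H2A.Z consensus or H3K79me2 lay inside the gene or within 5 kb.

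The genes closest to the 5 kb limit show how the classes meet. Just inside the H2A.Z-only class were TNNI3, IFI35 and SPACDR, whose nearest H3K79me2 peak was 5.05, 5.10 and 5.13 kb away. Just outside it were TMEM151B, DYNLT4 and HMOX1, at 5.00, 4.90 and 4.89 kb. Their CST −log10 q at an end was 49.8, 15.4 and 17.5 inside and 9.26, 15.7 and 26.1 outside. Just inside the H3K79me2-only class were BRD7, NUTM1 and LOC107987433, whose nearest H2A.Z peak of either antibody was 5.05, 5.26 and 5.28 kb away. Just outside it were PTPRCAP, TREX1 and SRRM5, at 4.99, 4.98 and 4.56 kb.

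Peak by peak, the overlap was more limited than gene by gene. Of the H2A.Z consensus peaks, 43.0% (42.5 to 43.5) overlapped an H3K79me2 peak, and 22.8% (22.5 to 23.2) of the H3K79me2 peaks overlapped an H2A.Z consensus peak. Shared sequence came to 7.26 Mb, which was 41.1% of the bases under H2A.Z consensus peaks and 11.3% of those under H3K79me2 peaks. The place of the peak went with the overlap. Among H2A.Z consensus peaks, 64.9% of those with a summit at a gene end overlapped H3K79me2, 35.2% of those elsewhere inside genes and 8.29% of those outside genes. Among H3K79me2 peaks the shares with H2A.Z were 82.5% at gene ends, 6.77% inside genes and 28.7% outside.

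Stronger and wider peaks overlapped more often in both directions. The deposited −log10 q of a peak, larger where the peak stands further above background, was used to rank peaks within each list. In quartiles 1 to 4 of this value, weakest first, 23.4%, 33.9%, 51.9% and 63.0% of H2A.Z consensus peaks overlapped H3K79me2. The same quartiles of H3K79me2 peaks gave 3.21%, 6.12%, 13.2% and 69.0% with H2A.Z, so the step came at quartile 4. Of all H3K79me2 peaks, 75.8% had their summit inside genes, away from the ends. A wider peak also has more room to overlap another, and the share of H3K79me2 peaks with H2A.Z was 9.39% at up to 0.5 kb and 79.6% above 5 kb.

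When H3K79me2 peaks no more than 1 kb apart were joined into domains, 10417 of 22531 domains held an H2A.Z consensus peak (46.2%, 45.6 to 46.9). These domains had a median width of 2966 bp (2846 to 3050), against 493 bp (479 to 510) for the domains without H2A.Z, and they spanned 57.2 Mb against 17.2 Mb. The share with H2A.Z was 20.6% for domains of up to 1 kb, 48.8% from 1 to 2 kb, 65.3% from 2 to 5 kb, 81.0% from 5 to 10 kb, 88.1% from 10 to 20 kb and 92.7% above 20 kb. Of the 534 domains above 20 kb, 495 held an H2A.Z consensus peak. The widest domain of all, of 117 kb, held none, and the widest with one was 115 kb. A wider domain also has more room to hold a peak.

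Strand was known for 15412 genes, those with a promoter in the RefSeq table. That table had none on chromosome 8, which held 708 genes, so results by strand or promoter leave this chromosome out. The promoter start was at the annotated 5′ end in 13392 genes, and in the others the nearest listed start was used. Both signals sat at the 5′ end. In dual genes the H2A.Z consensus was at the 5′ end in 98.7% and H3K79me2 at the 5′ end in 98.1% (n = 8543). In H2A.Z-only genes H2A.Z was at the 5′ end in 91.4% and at the 3′ end in 16.03% (n = 1691). In H3K79me2-only genes H3K79me2 was at the 5′ end in 43 of 54 and at the 3′ end alone in 11, so part of this class carried no H3K79me2 near its start.

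Along dual genes of at least 20 kb, H2A.Z was narrow and H3K79me2 ran on into the gene. H2A.Z consensus peaks covered 49.6% of bases from 0.5 to 0.25 kb before the 5′ end, 48.3% in the last 0.25 kb before it and 67.9% in the first 0.25 kb after it, and 1.64% at 2 kb (n = 5410 genes). H3K79me2 peaks covered 75.9% of bases in the first 0.25 kb, 82.5% in the next, 54.9% at 2 kb, 33.0% at 5 kb, 19.5% at 10 kb and 9.69% just short of 20 kb. In H2A.Z-only genes H2A.Z covered 34.5% and 45.6% of bases in the same steps before the 5′ end and 55.4% in the first 0.25 kb after it (n = 992), and the H3K79me2 line at 0 is set by the class rule. In the 21 H3K79me2-only genes of this length H3K79me2 covered 64.3% of bases from 0.25 to 0.5 kb, 53.1% at 2 kb, 37.5% at 5 kb and 21.98% at 10 kb.

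**Figure D1:**
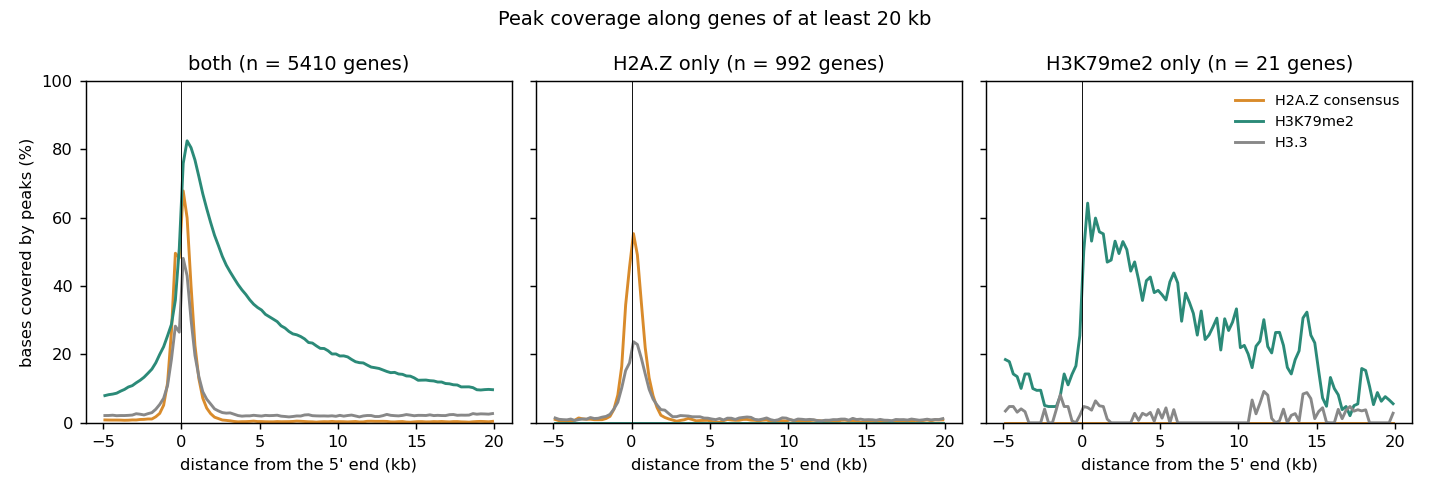
Share of bases under peaks (%) in steps of 0.25 kb from 5 kb before to 20 kb after the annotated 5′ end, for genes of at least 20 kb that were dual (5410), H2A.Z-only (992) or H3K79me2-only (21), with lines for the H2A.Z consensus, H3K79me2 and H3.3. H2A.Z stayed within about 1 kb of the 5′ end in dual and H2A.Z-only genes, while H3K79me2 was highest just downstream and still covered 19.5% of bases at 10 kb in dual genes.

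The summits of the signals were offset in the direction of transcription. Over 8356 dual genes with both signals at the 5′ end, the strongest H2A.Z summit lay at a median of 114 bp (111 to 118) downstream of the annotated start and the strongest H3K79me2 summit at 341 bp (329 to 352). Within a gene, the H3K79me2 summit minus the H2A.Z summit had a median of 106 bp (94 to 118), with quartiles of −14 and 664 bp. The H3K79me2 summit was the more downstream one in 71.0% (69.98 to 71.9) of these genes. Quartiles of the H2A.Z summit were −247 and 257 bp, on either side of the start, whereas those of the H3K79me2 summit, 143 and 622 bp, were both downstream.

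The strongest dual genes, ordered by the lower of their ranks in the CST and H3K79me2 lists, had varied known roles. TXN, the thioredoxin that reduces disulphides in the cytosol, had −log10 q values of 142 in the CST list, 376 in the Abcam list and 774 in the H3K79me2 list. These values rank peaks within a list and are not compared between lists.

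ATXN7, a subunit of the SAGA coactivator, and THOC7, of the THO mRNA export complex, start beside each other and share one set of peaks, with 116, 383 and 829. LMNB2, which encodes lamin B2, had 112, 175 and 925, and H3K79me2 peaks covered 79.3% of its 28.8 kb. BRD1, a subunit of a histone acetyltransferase complex, had 110, 195 and 838, with 73.3% of its 54.6 kb covered. PTBP2, a splicing regulator best known from neurons, had 105, 236 and 720. TMEM80, with 132, 228 and 769, and ATP13A1, an ATPase of the endoplasmic reticulum with 118, 273 and 790, were also among them, and each of these named genes also carried H3.3 and H4K16ac peaks at an end. Of all dual genes 91.1% had H3.3 and 74.7% H4K16ac at an end, against 64.5% and 55% of all genes.

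The strongest H2A.Z-only genes included a signalling ligand and several genes of cilia. WNT3A, a ligand of the WNT pathway, had the highest CST −log10 q of the class, 214, with 269 in the Abcam list, and its nearest H3K79me2 peak lay 18.6 kb away. ANKRD35 had 168 and 287, and SPOCD1, known from mouse germ cells for piRNA-directed DNA methylation, had 143 and 302. NHEJ1, a factor of DNA end joining, and SLC23A3 share one H2A.Z peak between them, with 139 and 394. The highest CST value in the dual class was 218.

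Of the ciliary genes, DNAH7, an axonemal dynein heavy chain of 331 kb, had a CST −log10 q of 135 and an Abcam value of 380, with H3K79me2 no closer than 59.7 kb. CFAP206, a component of the axoneme, had 133 and 259, and TMEM17, a protein of the ciliary membrane, had 128 and 276. VGLL3, a cofactor of TEAD transcription factors, had 128 and 296 and lay 236 kb from the nearest H3K79me2 peak. CCDC175 had 130 and 334. All 10 strongest H2A.Z-only genes had an H3.3 peak at an end and 7 had an H4K16ac peak, the exceptions being ANKRD35, DNAH7 and CFAP206. In the whole class 69.1% had H3.3 and 60.1% H4K16ac at an end, against 64.5% and 55% of all genes. The H4K16ac count is thus near these shares.

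The H3K79me2-only class was small, and its strongest members had varied known roles. HOXA5 and HOXA6, transcription factors of body patterning, lay under one H3K79me2 peak of −log10 q 751 that covered 100% of both genes, and the nearest H2A.Z peak of either antibody was 9.84 kb from HOXA5 and 8.36 kb from HOXA6. NPM1, the nucleolar chaperone nucleophosmin, had 742, with 86.6% of its 23.8 kb covered, and the nearest H2A.Z peak was 8.01 kb from the gene and 15.5 kb from its 5′ end. HOXD10 had 569, with H2A.Z 8.83 kb away.

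CDCA4, a gene of the cell cycle, had an H3K79me2 −log10 q of 464 and was covered over 100% of its 11.5 kb, with the nearest H2A.Z peak 12.4 kb away and neither H3.3 nor H4K16ac at an end. CPSF6, a factor of pre-mRNA 3′ end formation, had 455, with H2A.Z 57.6 kb away. IGFALS, whose product carries insulin-like growth factors in serum, had 371, and EPN1, an endocytic adaptor, had 296. The unnamed loci LOC107984142 and LOC124900172 had 694 and 522. Below the 10 strongest members, EIF4EBP2, a repressor of cap-dependent translation, had 294, and OGT, the O-GlcNAc transferase, had 151, with the nearest H2A.Z peaks 20.9 and 40.9 kb away. OGT was chosen for mention after its value was seen.

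H3K79me2-only genes had weaker H3K79me2 peaks than dual genes. The −log10 q at the end was at least 100 in 18 of 73 and under 20 in 36 of 73, against a median of 177 in dual genes and 20.7 (12.6 to 33.4) in this class. Several members have near-identical copies elsewhere in the genome, FAM72A, FAM72C, FAM72D, NOTCH2NLC, CCZ1, WASHC2C, ARHGAP11A, DDT, DDTL and POLR2J among them, and the labels do not say how reads matching several places were handled, so their class is uncertain. When only the 10000 strongest peaks of each list were kept, the class held 2172 genes in place of 73, a setting that trims the H2A.Z and H3K79me2 lists at once, while peaks with a −log10 q of at least 5 gave 82 genes.

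The lists of genes that every cell uses were mostly dual. Over all genes 52.9% were dual, 11.7% H2A.Z-only and 0.375% H3K79me2-only. Of 83 cytosolic ribosomal protein genes, 69 were dual, none was H2A.Z-only and RPL37A was H3K79me2-only, while 12 had unclear H2A.Z. Mitochondrial ribosomal proteins had 69 dual genes of 75, with MRPL1 H3K79me2-only. Subunits of oxidative phosphorylation had 69 dual genes of 80 and a single H2A.Z-only gene, COX6B2, the testis form of a cytochrome oxidase subunit, with a CST −log10 q of 118 and an Abcam value of 322.

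Machinery of RNA, protein and cell division followed the same pattern. Dual genes numbered 63 of 74 splicing factors, 51 of 60 translation factors, 37 of 39 aminoacyl-tRNA synthetases, 34 of 39 proteasome subunits, 29 of 30 Mediator subunits and 26 of 31 RNA polymerase subunits. They numbered 43 of 46 DNA replication factors and 48 of 50 mitotic and kinetochore genes. H2A.Z-only genes were absent from these lists apart from PRPF40B among the splicing factors. EIF4EBP2 and EIF4EBP3 among translation factors and POLR2J among polymerase subunits were H3K79me2-only. Of 17 glycolytic enzymes 12 were dual, and of 25 genes of cholesterol synthesis and uptake 20 were dual and 2 were H2A.Z-only, HSD17B7 among them.

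The machinery of both signals was mostly dual, as were the lists of commonly used genes above. Of 25 genes of H2A.Z and its exchange complexes, 24 (96%) were dual, against 52.9% of all genes. Mediator subunits had 96.7% and mitotic and kinetochore genes 96%, so the share was not particular to this machinery. SRCAP, the ATPase that inserts H2A.Z, had −log10 q values of 155 in the CST list, 299 in the Abcam list and 671 in the H3K79me2 list, and EP400, the ATPase of the other complex, had 49.4, 119 and 473. H2AZ1 had 31.7, 101 and 254, with 93.7% of the gene under H3K79me2, and H2AZ2 had 14.8, 6.47 and 133. KAT5, the acetyltransferase of the EP400 complex, had 196, 292 and 396. The exception was EPC1, with H3K79me2 at an end (54.6) and H2A.Z only elsewhere in the gene.

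Of 38 genes of DOT1L and the elongation factors, 36 (94.7%) were dual, against 52.9% of all genes and 93.5% of DNA replication factors. DOT1L had values of 25.9, 61.0 and 755 in the CST, Abcam and H3K79me2 lists, and H3K79me2 covered 67.3% of it. MLLT3, which encodes AF9, had 28.5, 103 and 400, and MLLT10, which encodes AF10, had 35.8, 106 and 408. MLLT1, which encodes ENL, had H3K79me2 of 264 and a CST peak of 6.36 with no Abcam peak, so its H2A.Z was unclear. AFF3, a factor of the super elongation complex with tissue-limited expression, had neither signal at an end. Among 34 Polycomb complex genes 29 were dual and none was H2A.Z-only.

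Among lists of over 13 genes, H2A.Z-only shares were highest for ion channels, glutamate and GABA receptors, growth factor ligands, collagens, WNT genes and cadherins. Median gene length was 56666 bases for these channels, 146753 for these receptors, 144672 for collagens and 116830 for cadherins, against 25553 over all genes. Growth factor ligands and WNT genes were shorter, with 13762 and 20736 bases. The part of gene length in these shares was not tested. Of the short lists, blood markers had 2 of 5 (40.0%) and neural markers 0 of 7. Of 139 voltage-gated and inward rectifier ion channels, 34 were dual and 55 (39.6%) were H2A.Z-only, KCNJ3 and CACNA1G among the strongest with CST −log10 q of 90.7 and 73.8. Of 47 glutamate and GABA receptors 7 were dual and 18 (38.3%) H2A.Z-only, led by GRM8, a metabotropic glutamate receptor, with 65.2 in the CST list and 412 in the Abcam list. Of 88 cadherins and protocadherins 6 were dual and 25 (28.4%) H2A.Z-only, including CDH1, the cadherin of epithelia, with 45.7 and 236. In the same list CDH2, the cadherin of mesenchymal and neural cells, was dual, with 25.7, 95.5 and an H3K79me2 value of 707.

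Collagens had 12 dual and 15 (34.1%) H2A.Z-only genes of 44, COL1A1 with a CST value of 94.6 and an Abcam value of 248. FGF, BMP and TGF-beta ligands had 19 of each among 54, with FGF20 and BMP3 the strongest H2A.Z-only genes at 71.2 and 60.5 in the CST list. WNT ligands and Frizzled receptors had 11 dual and 9 (31.0%) H2A.Z-only genes of 29. The receptors FZD7 and FZD8 were among the dual genes and the ligands WNT3A and WNT7A among the H2A.Z-only genes, and ligands and receptors were not counted apart.

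Developmental transcription factors were mixed. Of 42 SOX, GATA and T-box factors 19 were dual and 9 (21.4%) H2A.Z-only. SOX12 and SOX4 had H3K79me2 −log10 q of 701 and 584, while EOMES and TBXT, T-box factors of the early embryo, had H2A.Z of 53.1 and 29.7 in the CST list and no H3K79me2. Non-HOX homeobox factors had 59 dual and 18 (14.2%) H2A.Z-only genes of 127, and forkhead factors 21 and 7 of 45. Zinc finger (ZNF) genes, many of which lie in clusters of related sequence, had 322 dual, 46 (9.06%) H2A.Z-only and 2 H3K79me2-only genes of 508.

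Gene families of other tissues mostly had neither signal at an end. Chemokines, interleukins and their receptors had 18 dual and 19 (13.4%) H2A.Z-only genes of 142, with IL10RA at 103 and CXCL3 at 94.6 in the CST list. Cytochrome P450 enzymes had 6 and 9 of 55, with CYP1A1, an enzyme induced by aryl hydrocarbons, at 72.1. Keratins had 2 and 5 of 55, and KRT8 and KRT18, the keratins of simple epithelia, were the dual ones, on one shared set of peaks. Keratin-associated proteins had 0 and 5 of 32 and olfactory receptors 0 and 5 of 241, with neither signal at an end of 236. None of these lists had an H3K79me2-only gene.

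Immediate early and heat shock genes had H2A.Z-only shares near the 11.7% of all genes and dual shares above the 52.9%. Of 34 immediate early genes and MYC family members 23 (67.6%) were dual, 4 (11.8%) were H2A.Z-only and 5 had the H2A.Z consensus at an end with H3K79me2 nearby. JUN had 37.1, 162 and an H3K79me2 value of 619, while EGR3 and CCN2 had H2A.Z of 43.9 and 38.1 in the CST list and no H3K79me2. Of 66 heat shock and DNAJ chaperone genes 46 (69.7%) were dual and 7 (10.6%) H2A.Z-only, among them HSPA6, a strictly stress-induced HSP70, with a CST value of 89.2, whereas HSPD1, the mitochondrial chaperonin, was dual with an H3K79me2 value of 741. Solute carriers had 177 (46.7%) dual genes of 379, a share below that of all genes, with 51 (13.5%) H2A.Z-only and 1 H3K79me2-only.

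**Figure D2:**
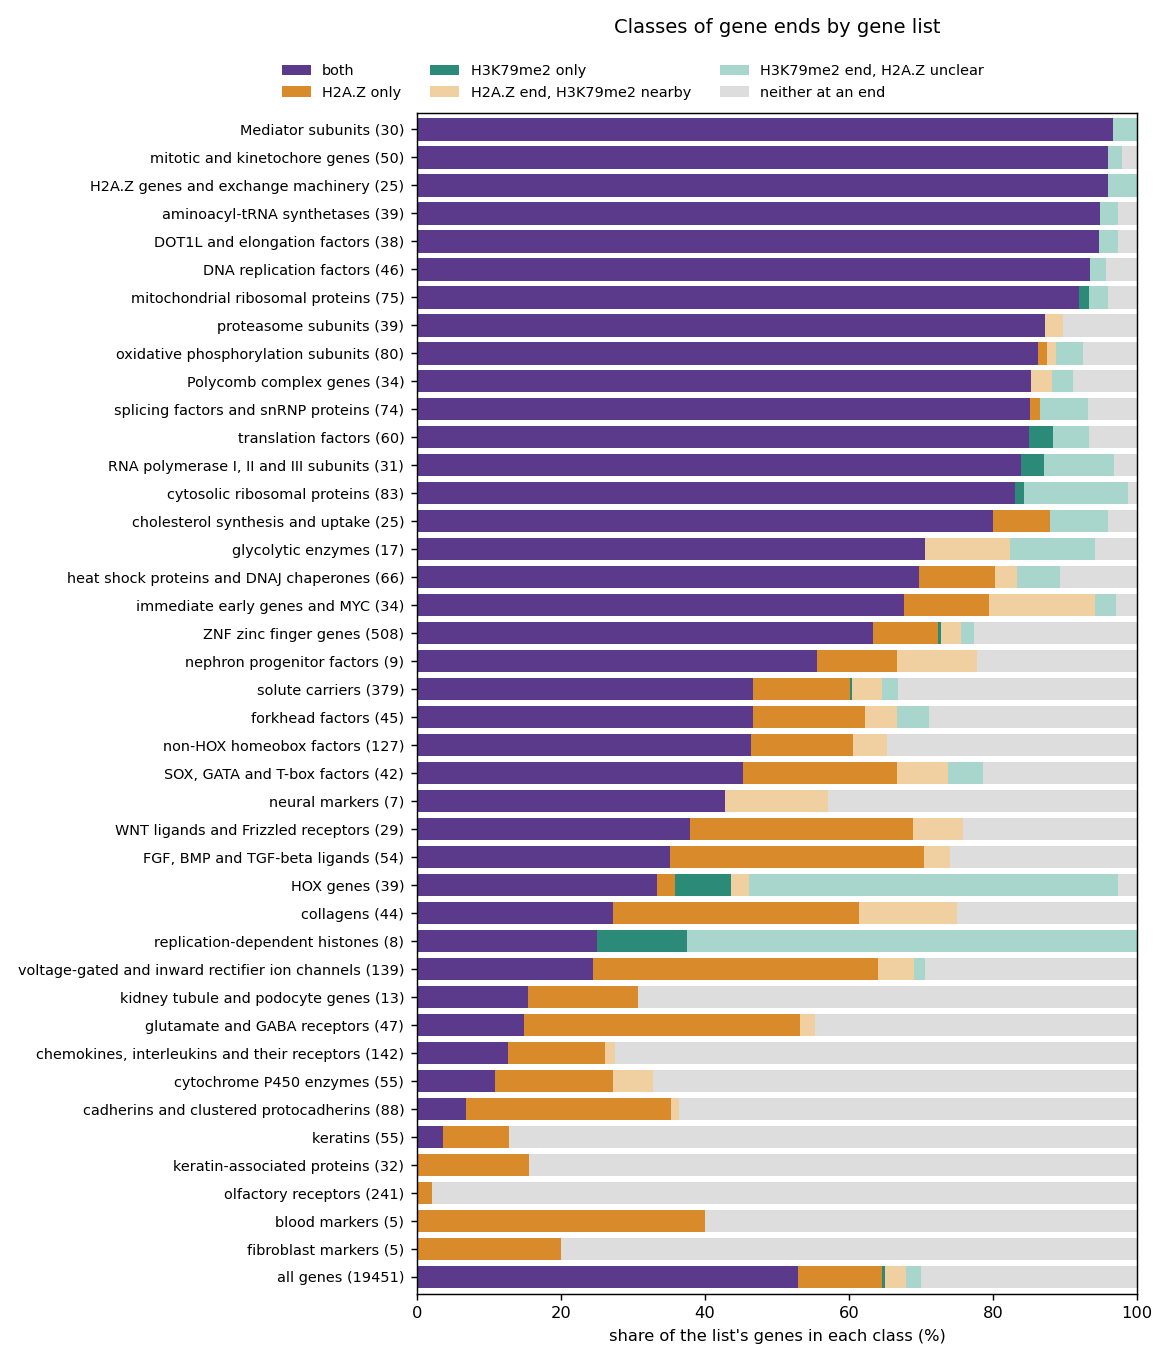
Share of each gene list in each class (%), with the number of genes found in parentheses and all genes in the last row, lists ordered by their dual share. Ribosomal protein genes were 83.1% dual and Mediator subunits 96.7%, and the orange H2A.Z-only part was widest in blood markers (2 of 5 genes), ion channels and glutamate and GABA receptors.

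Cell type markers were counted beside the 52.9% dual share of all genes, and lists this short do not check the labelled line. Nephron progenitor factors were dual in 5 of 9 (55.6%), SIX2, LHX1, WT1 and SALL1 among them, and EYA1 was H2A.Z-only. PAX2 and PAX8 had neither signal at an end. Markers of mature kidney tubule and podocyte were dual in 2 of 13 (15.4%), PODXL and LRP2, both with weak H3K79me2 (36.7 and 15.5). In that list NPHS1 and SLC12A3 were H2A.Z-only. Neural markers were dual in 3 of 7 (42.9%), INA, NEFL and NEFM. None of the 5 blood and none of the 5 fibroblast markers was dual, and SPI1, CD3E and COL1A1 were H2A.Z-only.

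Many HOX genes, the transcription factors that pattern the body axis, had H3K79me2 without the H2A.Z consensus. H3K79me2 was at an end of 36 of the 39 genes, against 55.4% of all genes, and covered at least 90% of 22 of them. Dual genes numbered 13, H2A.Z-only genes 1, H3K79me2-only genes 3 and genes with unclear H2A.Z 20, a class that held 2.09% of all genes. Neighbouring HOX genes lie under shared peaks and are not independent of each other: HOXA3 to HOXA7 and HOXA9 to HOXA11 all had the same H3K79me2 peak, with a −log10 q of 751.

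The highest H2A.Z values were at genes on the edges of the clusters or apart from them. HOXA13, at the end of its cluster, was dual, with −log10 q values of 46.2 in the CST list, 94.96 in the Abcam list and 659 in the H3K79me2 list. HOXB13, which lies apart from the other HOXB genes, had 50.3, 186 and 104. HOXD1, at the other end of the HOXD cluster, was the only H2A.Z-only gene, with 45.9 and 264. Inside the clusters, HOXA4 was dual with 5.30, 9.30 and 751, and HOXB7 was dual with 8.73, 30.1 and 744. HOXA7 had an Abcam peak alone, of 13.1, and HOXA9 a CST peak alone, of 6.10. In HOXC, 6 of 9 genes were dual, including HOXC10 with 12.2, 38.2 and 766, while 2 of 11 were in HOXA, 3 of 10 in HOXB and 2 of 9 in HOXD. Only 8 replication-dependent histone genes met the 1 kb minimum, with a median annotated length of 9661.5 bases, and shorter ones were not classed. Of these 8, 2 were dual, H4C15 was H3K79me2-only and 5 had unclear H2A.Z. Over all genes the shares were 52.9%, 0.375% and 2.09%. The H3K79me2 peak of H4C15 was at its annotated 3′ end, with none within 10770 bases of the 5′ end.

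**Figure D3:**
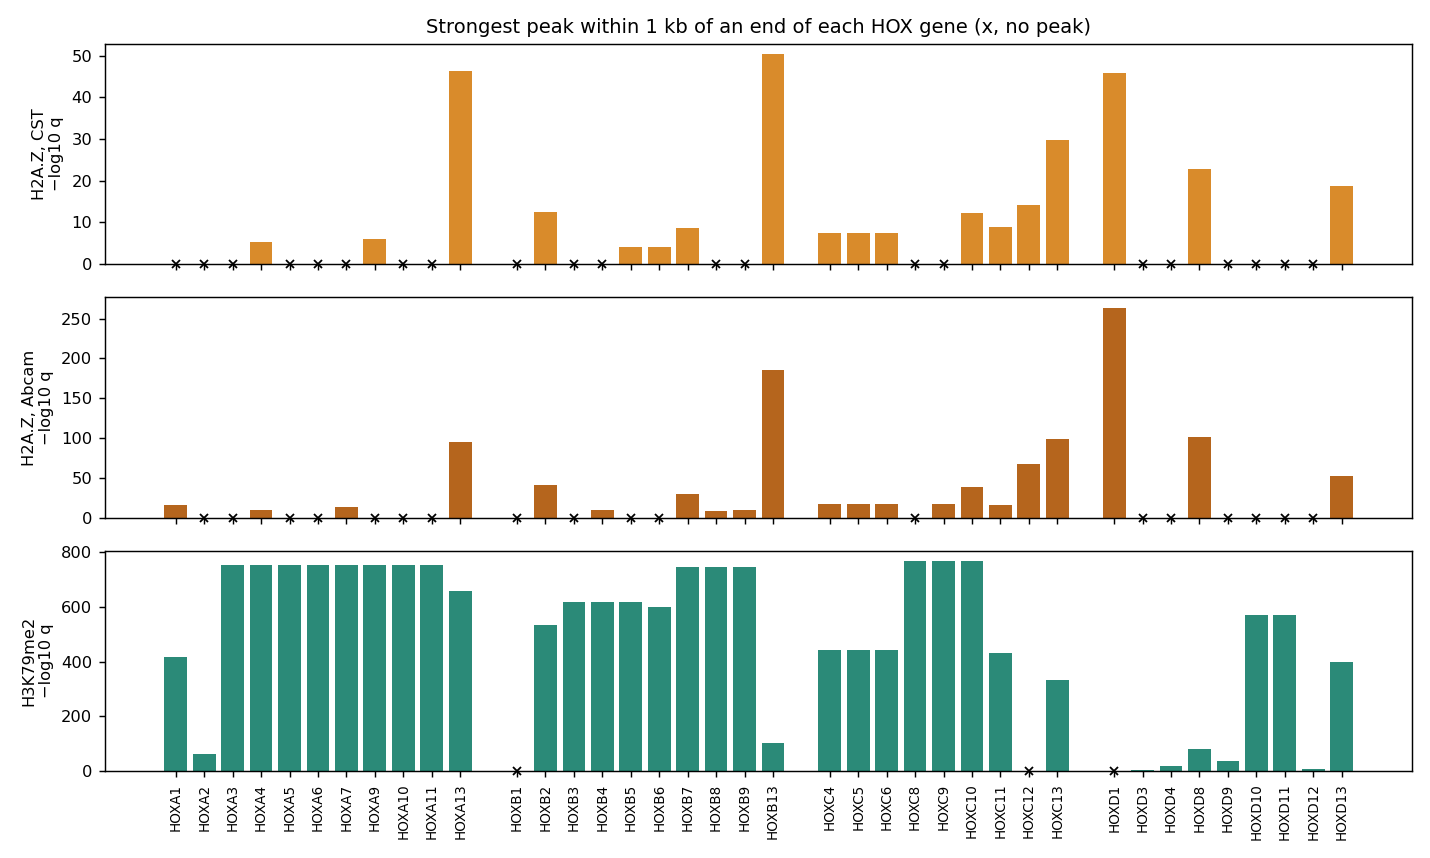
Strongest peak within 1 kb of an end of each HOX gene, as −log10 q (own axis per list) in the H2A.Z CST, H2A.Z Abcam and H3K79me2 lists, with genes in cluster order and a cross where there was no peak. H3K79me2 had one value of 751 from HOXA3 to HOXA11 and no peak at HOXB1, HOXC12 and HOXD1, and the highest H2A.Z bars stood at HOXA13, HOXB13 and HOXD1.

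Gene length differed between the classes, and the rule bears on it, since both exclusive classes allow no excluding peak anywhere in the gene. Median length was 30.6 kb (29.8 to 31.6) in dual genes, 27.4 kb (24.7 to 29.3) in H2A.Z-only genes and 9.23 kb (5.80 to 18.3) in H3K79me2-only genes, against 25.6 kb over all genes. The order of dual and H2A.Z-only genes was the other way with the 10000 strongest peaks (31973 and 34085 bases) and at the annotated 5′ end only (31368 and 32527 bases). The H3K79me2-only median was 26406 and 18401 bases under these settings, 16753 bases with absence over 10 kb and 21959.5 bases for genes with no other gene within 5 kb. H2A.Z-only genes had the wider spread, with quartiles of 9.17 and 89.2 kb against 12.4 and 73.7 kb in dual genes. A longer gene has more room for a peak that removes it from either exclusive class, so a shift of those classes to short genes is in part set by the rule.

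Despite that, the H2A.Z-only share was highest among the longest genes. Among genes of 1 to 5 kb 36.0% were dual, 11.7% H2A.Z-only and 0.948% H3K79me2-only. At 20 to 50 kb the shares were 60.4%, 10.0% and 0.317%. At 200 to 500 kb they were 54.3%, 17.7% (15.4 to 20.1) and 0%. Above 500 kb they were 36.6%, 25.5% (20.8 to 30.7) and 0%, where 0 of 314 genes allows up to 1.17% H3K79me2-only by the exact interval. The share with neither signal was 45.9% at 1 to 5 kb, 24.7% at 20 to 50 kb and 33.4% above 500 kb.

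H3K79me2 spread over a short stretch of most dual genes. The median dual gene had 2.65 kb (2.57 to 2.75) under H3K79me2 peaks, with quartiles of 1.13 and 6.20 kb, which was 11.2% (10.7 to 11.6) of its length. H3K79me2-only genes had 1.15 kb (0.499 to 2.40) and 13.6% (6.29 to 27.4), and the intervals of the share overlapped. At least 10% of the gene was covered in 52.5% of dual genes, at least 50% in 12.7% and at least 90% in 2.98%. H3K79me2 reached, without a gap over 1 kb, a median of 2.51 kb (2.43 to 2.60) into dual genes and 0.281 kb upstream of the 5′ end, and 1.87 kb (0.910 to 3.25) into the 43 H3K79me2-only genes with a peak there.

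The covered length followed gene length up to a point. In dual genes it had a median of 1546 bases in genes of 1 to 5 kb, 2524 bases at 10 to 20 kb, 3292.5 bases at 20 to 50 kb and 4377 bases (3786 to 4953) at 100 to 200 kb. In longer genes it was smaller, 2211 bases (1878 to 2510) at 200 to 500 kb and 1330 bases (1103 to 1803) above 500 kb. As a share of the gene it was 55.6% in the shortest class and 0.181% in the longest. The intervals of the last 2 classes lay below that of the 100 to 200 kb class.

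The covered length ran from 0 to 191 kb. ANKRD11, a chromatin regulator that binds histone deacetylases, had 191 kb of its 223 kb under H3K79me2 (85.9%), with H2A.Z of 10.3 in the CST list. FAM193A had 79.8 kb, SPEN, a transcriptional repressor, 76.1 kb and SKI, a repressor of TGF-beta signalling, 75.1 kb. At the other end 257 dual genes had no H3K79me2 base inside the gene. Among these, SCRT1, NR2E1, FGF17, GRIN3B and STK11IP were dual by a weak H3K79me2 peak just outside the gene, of −log10 q 3.08 to 4.52. SCRT1 and NR2E1 are transcription factors of neural cells, and GRIN3B is a subunit of NMDA receptors.

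The covered share of dual genes ranged widely between lists. Dual ribosomal protein genes had a median of 75.3% of the gene under H3K79me2, in a list with a median gene length of 5057 bases. The median was 56.7% for splicing factors, 48.2% for oxidative phosphorylation, 29.6% for mitochondrial ribosomal proteins, 14.3% for mitotic genes and 11.97% for aminoacyl-tRNA synthetases, against 11.2% over all dual genes. It was 1.37% for ion channels and 7.57% for zinc finger genes. In bases, the dual members of the splicing list had a median of 5557 bases covered and those of the ion channel list 902 bases.

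Dual genes with a higher CST −log10 q at the end had less H3K79me2 along the gene. H2A.Z strength in this paragraph is that CST value, and the Abcam value was not set against covered length. In quartiles 1 to 4 of the CST value at the end, weakest first, the median covered length was 3576 bases (3334 to 3778), 2767.5 bases (2599 to 2937), 2332 bases (2190 to 2460) and 2086 bases (1968 to 2210). Median gene length in these quartiles was between 28676.5 and 32764 bases. Within genes of 20 to 50 kb the order was the same, with 4902, 3317.5, 3044 and 2582.5 bases. The height of the H3K79me2 peak at the end did not follow it, with medians of 184, 172, 175 and 172. Across the 10297 dual genes, which are not independent replicates and share these libraries, Spearman's rho was −0.15 between H2A.Z −log10 q and covered length, −0.03 between H2A.Z and H3K79me2 −log10 q, and 0.57 between H3K79me2 −log10 q and covered length.

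**Figure D4:**
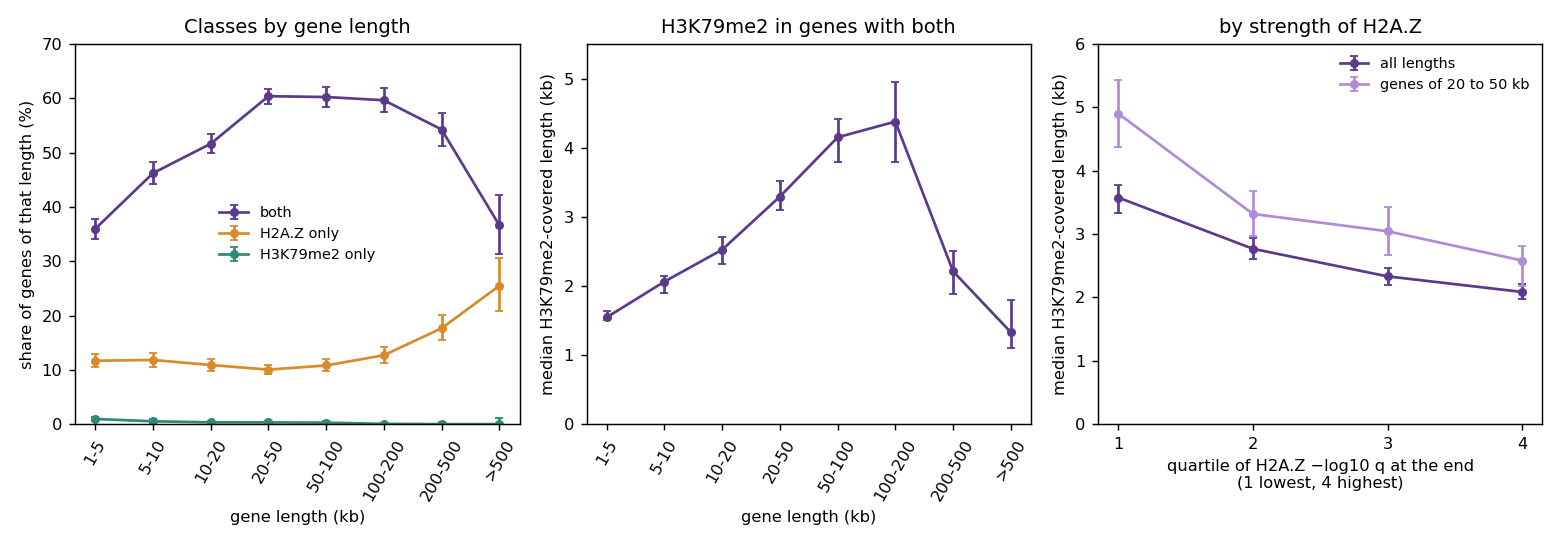
Left, share of genes in each class (%) by gene length in kb, with exact 95% intervals. Centre, median length under H3K79me2 peaks (kb) in dual genes by gene length, and right, by quartile of the CST −log10 q at the end, for all lengths and for genes of 20 to 50 kb, with 95% intervals of the median. The H2A.Z-only share was highest above 500 kb (25.5%), and the covered length was highest at 100 to 200 kb (4377 bases). The covered length was lower in each higher quartile of the CST value.

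H3.3 and H4K16ac, measured by libraries that the class rule did not use, were most frequent in dual genes. H3.3, a variant placed at active regulatory sites and in transcribed genes, was at an end of 91.1% (90.5 to 91.7) of dual genes, 69.1% (67.2 to 71.0) of H2A.Z-only genes and 53.4% (41.4 to 65.2) of H3K79me2-only genes, against 64.5% of all genes. H4K16ac, the acetylation written by KAT8, was at an end of 74.7% (73.8 to 75.5), 60.1% (58.1 to 62.2) and 45.2% (33.5 to 57.3), against 55% of all genes. Neither was at an end of 6.26% of dual, 21.0% of H2A.Z-only and 41.1% (29.7 to 53.2) of H3K79me2-only genes. H2A.Z-only genes were thus between dual genes and genes with neither signal, of which 13.97% had H3.3 and 17.8% H4K16ac.

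H3.3 peaks were stronger in dual than in H2A.Z-only genes, while the interval of H3K79me2-only genes held the dual median. The H3.3 median −log10 q at the end, where there was a peak, was 27.8 in dual genes, 14.02 in H2A.Z-only genes and 20.8 (14.9 to 29.3) in H3K79me2-only genes, against 23.6 over all genes. H2A.Z itself was weaker in H2A.Z-only genes, with a median CST −log10 q of 24.7 (23.6 to 26.0) and a median Abcam value of 77.8, against 39.2 (38.5 to 39.7) and 117 in dual genes. Gene density moved with the classes as well. Another protein-coding gene had an annotated end, 5′ or 3′, within 1 kb of an end in 39.9% of dual, 17.0% of H2A.Z-only and 24.7% of H3K79me2-only genes. Over all genes the share was 28.6%, and 31.9% of dual genes shared their H2A.Z peak with another dual gene. The part of gene density in the classes was not tested, and counts among genes with no other gene within 5 kb are given in the closing section.

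The promoters of the classes differed in sequence. A promoter was called CpG-rich when its 300 bases had at least 55% GC and a ratio of observed to expected CpG of at least 0.65. This held for 80.3% (79.5 to 81.2) of dual genes, 52.0% (49.6 to 54.4) of H2A.Z-only genes and 37.0% (24.3 to 51.3) of H3K79me2-only genes, against 18.6% of genes with neither signal and 58.2% of all genes with a promoter. GC content alone separated dual and H2A.Z-only genes little, with medians of 66.3% and 64%, while the CpG ratio had medians of 0.863 and 0.691. The promoters printed above give this range within one class, with CpG ratios of 0.934 for WNT3A and 0.310 for SPOCD1.

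Read the other way, 76.5% of CpG-rich promoters belonged to dual genes, 9.80% to H2A.Z-only genes and 0.223% to H3K79me2-only genes. Of the promoters that were not CpG-rich, 26.1% were dual, 12.6% H2A.Z-only and 0.527% H3K79me2-only. The H2A.Z-only class itself fell into CpG-rich genes, which were longer (median 40.7 kb) and had stronger H2A.Z (median CST −log10 q 30.4), and other genes (20.3 kb and 17.5). In dual genes the CpG-rich and other promoters had median CST values of 39.5 and 39.3, and median H3K79me2 values of 195 and 127.

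**Figure D5:**
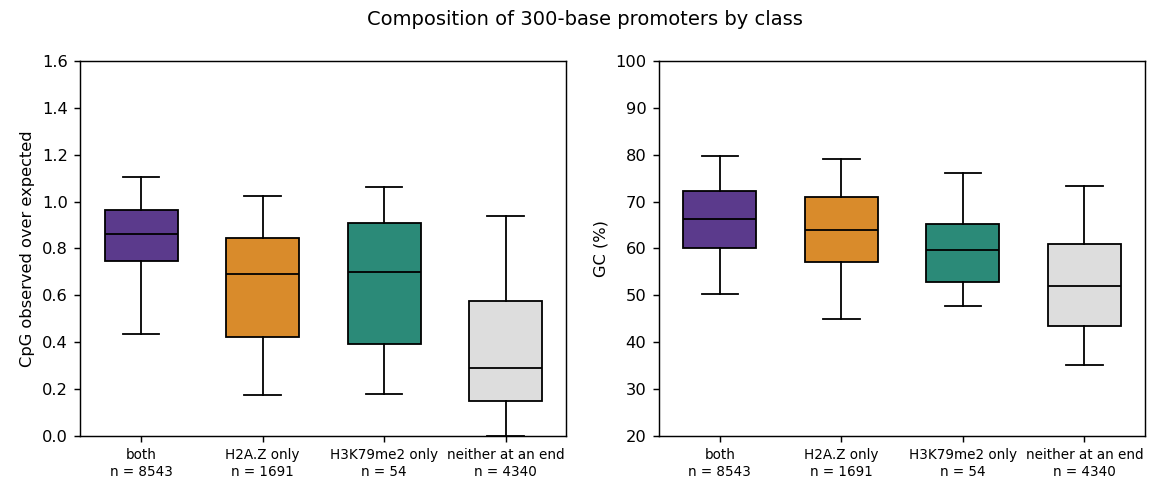
Ratio of observed to expected CpG (left) and GC content in % (right) of 300-base promoters of dual, H2A.Z-only and H3K79me2-only genes and of genes with neither signal at an end. Boxes give the quartiles with the median as a line, and whiskers run from the 5th to the 95th percentile. The median CpG ratio was 0.863, 0.691, 0.701 and 0.289 in this order.

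Short motifs were counted in the same windows on both strands, and no motif searched contains another. CCGGAAG, the core bound by ETS factors, was in 21.5% (20.7 to 22.4) of dual promoters, 5.56% (4.52 to 6.76) of H2A.Z-only promoters and 11.1% (4.19 to 22.6) of H3K79me2-only promoters, against 14.4% of all 15412 genes with a promoter and 10.3% of all 35116 promoters in the table. TATAAA was in 4.48%, 9.40% and 7.41%, against 8.99% of the genes and 11.5% of the table. GGGCGG, bound by SP1, was in 74.4%, 61.7% and 59.3%, against 59.4% of the genes and 44.95% of the table, so the exclusive classes were near the share of all genes.

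CCAAT, bound by NF-Y, was in 37.1% of dual, 29.8% of H2A.Z-only and 40.7% of H3K79me2-only promoters, against 36.1% of the genes and 34.6% of the table. CACGTG, an E-box, was in 10.8%, 8.28% and 14.8%, against 8.99% of the genes and 7.26% of the table. Dual promoters thus held CCGGAAG more often than H2A.Z-only promoters, and TATAAA less often, with intervals that did not overlap. CpG content differs between the classes too, and its part in these motif counts was not tested.

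By chromosome, the dual share was lowest on chromosome X. There 38.2% (34.9 to 41.6) of 824 genes were dual, 10.1% H2A.Z-only and 0.607% H3K79me2-only, and 46.4% had neither signal at an end.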

How the data were processed

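Peak lists of 5 ChIP-seq libraries from HEK293T cells, 1 per antibody, were used. The authors called the peaks on hg38, and the submitters' processing notes name MACS2 2.1.0, with Bowtie 1.1.2, Trimmomatic 0.33 and bcl2fastq 2.17, but the labels give neither settings nor the use of the input. For each peak the authors deposited a fold enrichment (a ratio to background), −log10 p and −log10 q values and an integer score. These values depend on depth, which is unknown here, and were used only to rank peaks within a list.

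From these lists, consensus peaks, gene classes, covered bases and summits were computed with Python 3.11.15, numpy 2.4.6, pandas 2.3.3 and scipy 1.17.1, and the class script was tested on simulated data. Gene positions and promoters came from RefSeq (GRCh38.p14), and both annotated ends were used, since strand was known for 15412 genes. Shares carry exact Clopper-Pearson intervals at 95%. The members, lists and rules were chosen with earlier results of these data known. Named genes were the 10 of highest −log10 q in each class, the 5 most and 5 least covered dual genes, up to 2 per class from each list, the genes nearest the 5 kb limit and the machinery of both signals. Other HOX genes, further cell type markers, OGT and members with near-identical copies were named after their values were seen. Some genes that the rule names are not reported here. Alternatives varied windows, thresholds, the consensus and gene spacing.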

Additional observations from a re-analysis of the deposited data

Results flagged for a closer look

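Peaks on contigs outside chromosomes 1 to 22 and X entered no comparison. There were 11 such peaks in the CST list, with −log10 q of up to 27.4, 11 in the Abcam list, with up to 92.7, and 5 in the H3K79me2 list, with up to 70.01.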

How the results depend on the processing

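Of the values recomputed under other settings, 67 stayed within the counting interval or, for counts of genes, within 1.5 times, and 26 moved further. Some of the 67 could not move by construction, so the tally is no measure of robustness. The absence distance does not enter the rule for dual genes. The H3K79me2-only rule uses the peaks of each H2A.Z antibody and not the consensus, so changes of the consensus leave that class as it was. Keeping the 10000 strongest peaks of each list gave 4179 dual genes (10297 in the report) and 2172 H3K79me2-only genes (73), median lengths of 31973 bases for dual, 34085 for H2A.Z-only and 26406 for H3K79me2-only genes, a covered share of 6.79% in dual genes, and overlaps of 46.8% of H2A.Z and 35.52% of H3K79me2 peaks. Genes with no other gene within 5 kb gave 3731 dual, 1343 H2A.Z-only and 20 H3K79me2-only genes, from fewer eligible genes, with median lengths of 45464, 34139 and 21959.5 bases and a covered share of 8.56%. Using only the annotated 5′ end, chosen after seeing the data, gave 43 H3K79me2-only genes and median lengths of 32527 bases for H2A.Z-only and 18401 for H3K79me2-only genes. Absence over 2 kb gave 110 H3K79me2-only genes, and absence over 10 kb a median length of 29536.5 bases for H2A.Z-only genes. The overlap of H2A.Z consensus peaks was 44.4% when Abcam peaks had to cover at least 0.5 of the CST peak, 42.3% from Abcam peaks, 44.6% at −log10 q of at least 5 and 39.6% when at least 0.5 of the peak had to be covered. The overlap of H3K79me2 peaks was 26.1% at −log10 q of at least 5 and 10.3% when at least 0.5 of the peak had to be covered. Where no construction of the setting shows it, the cause was not tested. Windows of 0.5 and 2 kb moved no value beyond these limits, but with 0.5 kb the covered share in H3K79me2-only genes was 21.6% (7.11 to 33.7) in place of 13.6%. No paired analysis was possible because each antibody had 1 library. Depth per library is unknown, so absence of a peak is not absence of the signal.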

Other observations

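Axonemal dyneins and CFAP genes, which build the moving cilium, were listed after DNAH7 and CFAP206 had been seen among the strongest H2A.Z-only genes, so the list gets no test. Of 80 such genes, 36 were dual, 15 H2A.Z-only (18.8%, against 11.7% of all genes) and none H3K79me2-only, 5 had H3K79me2 nearby and 24 had neither signal at an end. The dual members had a median of 448 bases, or 0.877% of the gene, under H3K79me2, against 2648 bases and 11.2% over all dual genes.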
